A study of Mus musculus with 31 samples.

Results

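The 10 genes described here encode enzymes that build fatty acids and triglycerides, with 1 transcription factor that controls such enzymes. They were chosen by name, with no measured value in the rule but with earlier results of these data known. The study's text had named Fasn, Scd1 and Elovl6 as higher 5d after 0.2U collagenase. At 1d after 0.2U it had also named Elovl6 as higher, with the related Elovl3 and Elovl4. It had named Acacb, Acss2 and Dgat2 as lower 6d after 10U. Counts of members called in those settings are therefore not independent of that text. All 10 (Acly, Acss2, Me1, Acaca, Acacb, Fasn, Scd1, Elovl6, Dgat2 and Srebf1) were found among the 22609 gene symbols counted in bulk RNA-seq of mouse masseter muscle (MM). MM of adult C57BL/6J male mice (2 to 4 months old) was injected with complete Freund's adjuvant (CFA, mixed 1:1 with PBS) or with type 2 collagenase (Col), giving 31 libraries in 9 groups, each taken here as 1 mouse. No source used here says that mice were pooled, and p-values measure the spread between these libraries. In the CFA experiment these were 3 mice at 1d post-CFA, 3 at 5d post-CFA and 3 PBS-injected vehicle mice. The Col experiment held 3 vehicle mice, 4 mice each in 2 low-dose (0.2U) groups that the labels call 1C and RPC, and the high-dose (10U) mice, of which 4 were collected 2d, 3 were collected 6d and 4 were collected 12d after injection. The study's text gives 1d and 14d for the groups labelled 2d and 12d, and the label days are used here. The labels give no day for 1C and RPC, the study's text gives 1d and 5d for low-dose Col without tying either day to these labels, and the vehicle mice's day of collection was not given. The tissue was whole MM with tendon removed as far as possible.

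Fatty acid synthesis takes place in the cytosol and starts from acetyl-CoA. Acly makes acetyl-CoA from citrate, Acss2 makes it from acetate, and Me1 supplies NADPH. Acaca and Acacb are the acetyl-CoA carboxylases that make malonyl-CoA, and Fasn joins these units into palmitate. The Acacb product acts at mitochondria, where malonyl-CoA restrains fatty acid oxidation, and Acacb is the main carboxylase of muscle. Elovl6 lengthens palmitate, Scd1 introduces the first double bond, Dgat2 adds the last acyl chain of triglyceride, and Srebf1 encodes SREBP-1, which drives transcription of many of these enzymes. Fat cells, liver and sebaceous glands are the tissues best known for the pathway.

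Levels are given as CPM, the reads on a gene scaled to a common library size after TMM normalization. Reads on genes ranged from 14843778 to 29076671 per library. The muscle gene Ckm, which encodes creatine kinase, was abundant in every library, between 3171 and 41922 CPM. Some libraries stood apart in genes of other tissues. The summed level of 9 salivary gland markers ran from 1.15 to 186089 CPM over the 31 mice. In the 1C group, mice 1, 3 and 4 had 144, 118 and 152 CPM of Krt79, a keratin of sebaceous ducts, while mouse 2 had 1.35 CPM. In bulk tissue, fewer cells of a type and less RNA per cell cannot be told apart. The share of reads that the counting left as ambiguous, relative to reads on genes, was 0.68% to 0.883% in the 11 libraries of 10U Col and 0.147% to 0.318% in the other 20. The part of this difference in the comparisons of 10U groups with their vehicle was not tested.

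Start-site regions of 8 members (all but Scd1 and Dgat2) were in the RefSeq table used, on build GRCm38.p6. The 4 regions printed here, each the 250 bases before an annotated start, belong to 3 enzymes whose RPC mice all lay above vehicle and to Acss2, which fell at 10U 6d. Capitals mark 2 motifs read on both strands, CCAAT (the CCAAT box, bound by NF-Y) and GGGCGG (the GC box, bound by Sp1 family factors).

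Fasn (chr11:120824548-120824797, minus strand): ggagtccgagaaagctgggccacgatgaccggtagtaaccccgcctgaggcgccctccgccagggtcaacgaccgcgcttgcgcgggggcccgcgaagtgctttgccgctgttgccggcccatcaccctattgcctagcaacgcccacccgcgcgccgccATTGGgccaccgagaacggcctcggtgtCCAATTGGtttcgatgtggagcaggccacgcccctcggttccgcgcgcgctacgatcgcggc
Acly (chr11:100528001-100528250, minus strand): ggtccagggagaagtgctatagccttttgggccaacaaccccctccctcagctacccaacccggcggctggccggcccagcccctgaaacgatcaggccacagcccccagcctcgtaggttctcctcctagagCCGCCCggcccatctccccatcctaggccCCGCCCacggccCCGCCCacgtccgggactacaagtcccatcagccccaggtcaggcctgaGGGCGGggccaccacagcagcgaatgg
Elovl6 (chr3:129532136-129532385, plus strand): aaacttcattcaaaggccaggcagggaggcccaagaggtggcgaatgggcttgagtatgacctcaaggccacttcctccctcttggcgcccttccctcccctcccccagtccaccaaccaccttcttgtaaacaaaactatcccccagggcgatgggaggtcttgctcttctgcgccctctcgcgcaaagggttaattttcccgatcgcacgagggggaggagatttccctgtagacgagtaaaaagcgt
Acss2 (chr2:155517793-155518042, plus strand): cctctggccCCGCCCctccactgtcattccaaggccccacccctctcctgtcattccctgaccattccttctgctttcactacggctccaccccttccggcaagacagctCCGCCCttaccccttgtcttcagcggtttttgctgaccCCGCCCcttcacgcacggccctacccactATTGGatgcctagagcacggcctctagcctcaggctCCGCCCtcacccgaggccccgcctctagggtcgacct

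The Fasn region held 3 CCAAT boxes, 2 of which overlapped on opposite strands, and no GC box. Acly and Acss2 held 4 GC boxes each, Acss2 also held 1 CCAAT box, and Elovl6 held neither. Of the 8 members, 5 had a CCAAT box and 4 a GC box in at least 1 region, against 33.8% and 32.7% of all 32851 regions of this length in the table. Neither TCACNCCAC, a form of the sterol response element, nor the E-box CACGTG occurred in any member's region, and 1.05% and 6.02% of all regions held them. These counts describe letters in these windows only. Members with several listed starts had more chances of a match.

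Levels are compared between genes per length, as CPM per kilobase of the longest coding transcript (RPKM). In the vehicle mice of the Col experiment, Scd1 was highest at 71.0 ± 49.2 RPKM (SD, n = 3), followed by Dgat2 at 43.1 ± 18.8, Acacb at 37.2 ± 8.21, Me1 at 27.3 ± 1.66 and Acss2 at 24.8 ± 6.89. Acly (19.1 ± 4.78), Srebf1 (15.0 ± 2.17) and Fasn (13.4 ± 10.4) came next, and Acaca (1.74 ± 0.802) and Elovl6 (1.52 ± 0.483) were lowest. The 3 values of each gene overlapped those of its neighbour in this order except at 2 steps: the lowest Acacb value was 31.2 and the highest Me1 value 28.8 RPKM, and the lowest Fasn value was 7.14 and the highest Acaca value 2.67 RPKM. In the CFA vehicle mice Dgat2, Scd1 and Acacb again held the first places (66.1 ± 24.7, 59.1 ± 26.2 and 58.9 ± 25.2 RPKM) and Acaca and Elovl6 the last. Acacb was thus the far more abundant carboxylase in both vehicle groups. No member passed edgeR's quasi-likelihood test between the vehicle groups (0 of 10 called, 0 at an unadjusted p under 0.05, DESeq2 also 0), where edgeR called 0.0426% and DESeq2 0.462% of all genes.

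Over all 31 mice, Scd1, Elovl6 and Fasn varied most, by 79.1, 72.2 and 53.2 times between the lowest and the highest mouse in CPM, and Me1 least, by 3.05 times. The highest mouse for Scd1, Elovl6, Fasn, Acaca, Acly, Dgat2 and Me1 was in the 1C group, for Acacb and Acss2 it was a CFA vehicle mouse, and for Srebf1 a mouse at 5d post-CFA.

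**Figure D1:**
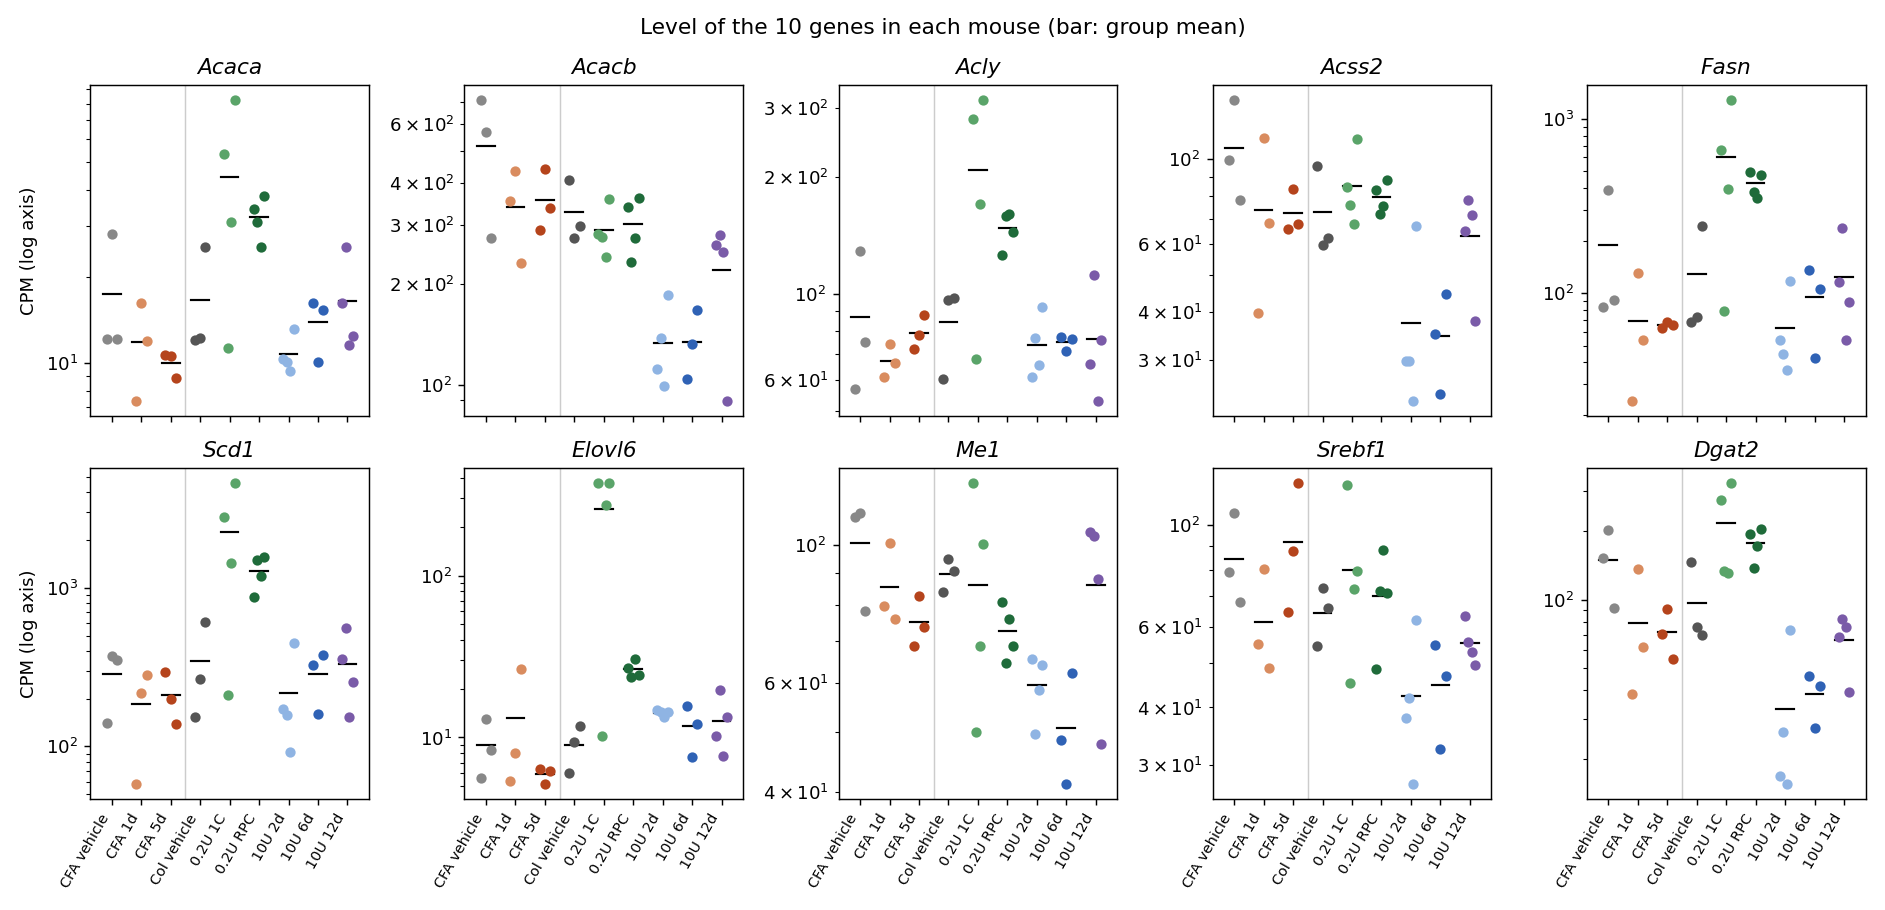
CPM (log axis) of each of the 10 genes in each mouse, by group, with CFA groups left and Col groups right of the grey line; points are mice and bars group means. Elovl6 sits between 275 and 372 CPM in 3 mice of 0.2U 1C and at 10.2 CPM in the fourth, and Acacb, Acss2, Me1 and Dgat2 are lower at 10U 6d than in each Col vehicle mouse.

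The first comparison asks how the genes stood after low-dose Col in the RPC group. Elovl6 had 26.7, 23.7, 30.5 and 24.4 CPM in the 4 RPC mice and 6.01, 9.39 and 11.7 CPM in the vehicle mice. All RPC mice were above all vehicle mice, and the fold was 2.97 (log2 fold change 1.57 ± 0.26 SE). Scd1 had 880, 1489, 1189 and 1569 CPM against 154, 265 and 611 CPM, again without overlap, at 3.78 times the vehicle level (1.92 ± 0.50). Fasn had 498, 381, 351 and 473 CPM against 68.5, 72.9 and 243 CPM, a fold of 3.36 (1.75 ± 0.49). Acly, at 126, 159, 160 and 144 CPM against 60.3, 96.4 and 97.4 CPM, was the fourth gene without overlap, at 1.78 times (0.83 ± 0.22). These 4 genes form the path from citrate to long-chain unsaturated fatty acids, with the carboxylase step left out.

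Acaca, the carboxylase that supplies Fasn, was at 34.5, 30.98, 25.3 and 38.1 CPM in RPC against 12.0, 12.3 and 25.4 CPM. The lowest RPC mouse was just under the highest vehicle mouse, and the log2 fold change was 0.99 ± 0.32. Dgat2, at 194, 138, 172 and 204 CPM, overlapped vehicle mice at 146, 75.5 and 69.8 CPM (0.93 ± 0.27). Acacb, Acss2 and Srebf1 lay within the vehicle range or across it, with log2 fold changes of -0.06, 0.19 and 0.16. Me1 went the other way, at 81.0, 64.6, 75.9 and 68.6 CPM, all below vehicle mice at 83.9, 94.7 and 90.7 CPM (-0.26 ± 0.13).

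By edgeR none of the 10 genes passed an adjusted p under 0.05 in RPC, and neither did any of the 14269 genes tested (0%). An unadjusted p under 0.05 was reached by 6 of the 10 members and by 1923 of the 14269 genes. The adjusted edgeR p was 0.232 for Elovl6, 0.272 for Scd1, 0.28 for Fasn, 0.275 for Acly and 0.28 for Dgat2. DESeq2 called those 5 genes higher, with adjusted p of 1.02e-05, 0.00126, 0.00556, 0.0179 and 0.0319, where it called 1.32% of all genes higher. The 4 genes without overlap above vehicle compare with 4.21% of all genes, and the 1 below with 8.02%. The median log2 fold change over the 10 members was 0.88, against 0.01 over all genes.

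Fat markers were higher in RPC and muscle markers lower. Adipoq, the fat cell hormone adiponectin, had 92.2, 66.6, 78.4 and 90.1 CPM in RPC and 19.5, 30.3 and 53.4 CPM in vehicle mice. The 8 white fat markers summed to 777 to 1211 CPM in RPC and 411 to 683 CPM in vehicle, with none of the 8 at 0 in either group, and the 5 brown fat markers to 70.6 to 188 and 5.64 to 13.2 CPM. Ucp1, the uncoupling protein of brown fat, was at 43.1 to 127 CPM in RPC and at most 2.04 CPM in vehicle. The 9 muscle fibre markers summed to 68056 to 89517 CPM in RPC and 96212 to 141316 CPM in vehicle, without overlap, with none at 0. Salivary gland markers were high and uneven. They summed to 18796, 186089, 126627 and 63544 CPM in RPC mice 1 to 4 and to 28.4, 116466 and 30022 CPM in vehicle mice 1 to 3. Relative to Adipoq, Elovl6 was at 0.271 to 0.39 in RPC and 0.22 to 0.31 in vehicle mice, and Acly at 1.36 to 2.39 and 1.82 to 3.18. Scd1 was at 9.545 to 22.36 and 7.895 to 11.44, and Fasn at 4.473 to 5.715 and 2.404 to 4.556, higher for most mice but overlapping. Acaca and Dgat2 overlapped too, while Me1, Acacb, Acss2 and Srebf1 lay wholly below vehicle on this scale. With the white fat marker mean as a covariate in 1 fit of all 31 libraries, edgeR called 0 members. That fit without a covariate called 0 of 15526 genes, so there was no call to remove and the covariate count says nothing on fat content.

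The 1C group, also 0.2U, was split between mice. Elovl6 had 372, 10.2, 275 and 372 CPM in mice 1 to 4, so that mouse 2 was inside the vehicle range and the other 3 were far above the highest vehicle mouse, at 11.7 CPM. Scd1 had 2781, 212, 1440 and 4570 CPM and Fasn 660, 78.7, 393 and 1281 CPM, with mouse 2 again at vehicle level. Acaca (53.6, 11.3, 30.9 and 82.3 CPM) and Acly (281, 68.0, 170 and 315 CPM) had the same split. Dgat2 did not follow it fully, at 275, 134, 131 and 325 CPM, since mice 2 and 3 were alike. Acacb (282, 276, 241 and 359 CPM), Acss2 (84.5, 76.0, 67.8 and 113 CPM), Me1 (126, 49.9, 68.7 and 100 CPM) and Srebf1 (122, 45.2, 72.5 and 79.6 CPM) showed no such gap, and their log2 fold changes against vehicle lay between -0.16 and 0.33.

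The log2 fold change of Elovl6 in 1C was 4.85 ± 1.11 (28.8-fold), with an adjusted p of 0.251 by edgeR and 0.000348 by DESeq2. Scd1 (2.72 ± 0.97), Fasn (2.24 ± 0.90), Acaca (1.44 ± 0.63), Acly (1.31 ± 0.51) and Dgat2 (1.18 ± 0.42) passed neither test. EdgeR called 0 of 10 members and 0% of 14493 genes, with 5 members and 1819 of all genes at an unadjusted p under 0.05. DESeq2 called 1 member higher and 2.48% of all genes higher. Without mouse 2, edgeR called Elovl6 at a log2 fold change of 5.28 and an adjusted p of 0.00139, and no other member, where it called 1.32% of all genes higher. The median log2 fold change over the members was 1.25, against 0.01 over all genes.

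Adipoq, Ucp1 and Krt79 were also higher in 1C mice 1, 3 and 4 than in mouse 2. Ucp1 had 214, 5.38, 164 and 409 CPM and Adipoq 121, 25.8, 86.9 and 149 CPM in mice 1 to 4. Krt79, at 118 to 152 CPM in mice 1, 3 and 4, was at 1.12 to 2.53 CPM in the RPC mice, which also had high Fasn and Scd1. The 9 sebaceous gland and skin markers summed to 588, 287, 506 and 787 CPM in 1C, to 103 to 460 CPM in RPC and to 56.4 to 146 CPM in vehicle. Mc5r, a receptor of sebaceous gland cells, was at 15.2 CPM in mouse 1 and between 0.598 and 1.09 CPM in the other 3. The salivary gland markers summed to 5232, 88.8, 26331 and 56.8 CPM, so that mouse 4 went with mouse 2, and the muscle fibre markers to 68334, 99090, 72158 and 89927 CPM, against 96212 to 141316 CPM in vehicle. In the fit of all 31 libraries edgeR called Elovl6 (4.83, adjusted p 0.00212), as it did with the white fat mean as covariate. These fits called 0.85% and 0.2% of all genes higher. With the sebaceous gland and skin mean, added after the data were seen, it called 0 of 15526 genes. That mean was 5.69, 2.02, 4.96 and 5.52 log2 CPM in mice 1 to 4. It holds the same split and cannot be told apart from it. Elovl6 passed with the added salivary and muscle means, where 1.69% and 0.2% of all genes were called higher. Beyond these fits, the part of these tissues in the levels of the 10 genes was not tested.

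**Figure D2:**
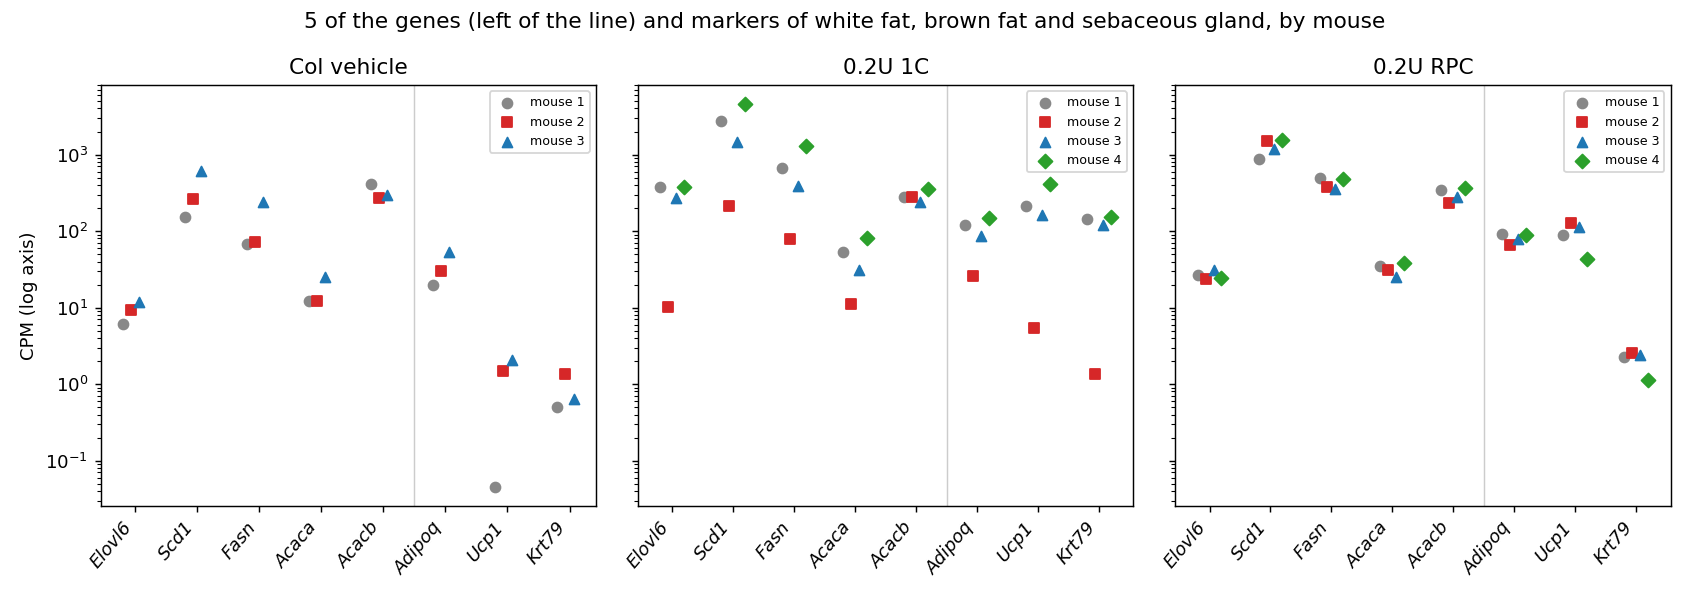
CPM (log axis) of Elovl6, Scd1, Fasn, Acaca and Acacb (left of the grey line) and of Adipoq, Ucp1 and Krt79 (right) in each mouse of Col vehicle, 0.2U 1C and 0.2U RPC. Mouse 2 of 1C lies far below the other 3 in all genes shown but Acacb, and Krt79 is above 100 CPM in 1C mice 1, 3 and 4 alone.

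Set against each other, 1C and RPC differed most in Elovl6, at a log2 difference of 3.28 ± 0.84 (1C minus RPC). Its adjusted p was 0.299 by edgeR and 0.013 by DESeq2. EdgeR called none of the members and 0% of all genes, with 1 member and 1458 of 14570 genes at an unadjusted p under 0.05. DESeq2 called 1 member and 1.43% of all genes higher in 1C. Fasn (0.49 ± 0.64), Scd1 (0.80 ± 0.71) and Acaca (0.46 ± 0.49) had differences close to their SE, and the RPC mice lay inside the wide range of 1C. Without 1C mouse 2, edgeR called 1 member higher, and 145 of 14470 genes.

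In high-dose Col most members lay below vehicle, and 6d post-Col (10U) was the only group in which members passed edgeR's test against vehicle. Acacb fell to 104, 132 and 168 CPM in the 3 mice from 409, 274 and 298 CPM in vehicle, a decrease of 2.43 times (log2 fold change -1.28 ± 0.25, adjusted p 0.0129). Dgat2 fell to 46.1, 27.2 and 41.5 CPM from 146, 75.5 and 69.8 CPM, by 2.52 times (-1.33 ± 0.32, adjusted p 0.0241). Acss2 fell to 35.1, 24.6 and 44.5 CPM from 96.0, 59.9 and 62.4 CPM, by 2.09 times (-1.06 ± 0.27, adjusted p 0.0274). Me1 fell to 48.5, 41.2 and 62.2 CPM from 83.9, 94.7 and 90.7 CPM, by 1.77 times (-0.83 ± 0.19, adjusted p 0.0211). In each of these 4 genes, every mouse at 6d was below every vehicle mouse.

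The genes of the path from citrate to oleate did not pass at 6d. Fasn was at 135, 42.4 and 106 CPM (-0.46 ± 0.60), Scd1 at 324, 160 and 379 CPM (-0.27 ± 0.54), Acly at 77.6, 71.2 and 76.5 CPM (-0.18 ± 0.22) and Acaca at 16.2, 10.1 and 15.3 CPM (-0.27 ± 0.36), and each overlapped vehicle. Elovl6 (0.37 ± 0.35) was the only member with a positive value, and Srebf1 (-0.53 ± 0.23) had an adjusted p of 0.119. The 4 of 10 members called lower compare with 13.3% of the 14281 genes tested by edgeR. By DESeq2 the same 4 genes were called lower, against 18.5% of all genes, and 4 of 10 lay wholly below vehicle, against 21.9% of all genes. The median over the members was -0.49 and over all genes 0.01.

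These 4 calls were lost without either of 2 libraries. Without mouse 1 or without mouse 2 at 6d, edgeR called 0 of the 10, and without vehicle mouse 1 it called 2. The log2 fold changes were -1.12 and -1.24 for Acacb and -1.48 and -1.12 for Dgat2 without mouse 1 and mouse 2. The share of all genes called lower was 2.68%, 2.44% and 7.06% in these 3 fits. The 9 muscle fibre markers summed to 35118 to 58893 CPM at 6d and 96212 to 141316 CPM in vehicle, and the 8 white fat markers to 247 to 407 and 411 to 683 CPM, neither with a marker at 0. The 6 leukocyte markers summed to 951 to 1885 and 78.5 to 391 CPM. The fit of all 31 libraries called the same 4 members and 16.8% of all genes lower. With the white fat mean as a covariate it called 1 member, Acacb, and 11.5% of all genes lower. With the muscle fibre mean (added after the data were seen) it called 0 members and 2.54% of all genes lower. There Dgat2 was at 0.07, Acss2 at -0.02, Acacb at -0.36 and Me1 at -0.55. The muscle mean was 11.39 to 12.08 log2 CPM at 6d and 12.61 to 13.25 in vehicle. The fat mean was 2.16 to 3.28 at 6d and 3.29 to 4.8 in vehicle. Both means hold the group difference and cannot be told apart from it.

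At 2d post-Col (10U) the same genes were low, with 1 mouse apart. Acacb had 112, 138, 99.1 and 185 CPM and Me1 65.5, 49.7, 58.4 and 64.1 CPM, all below vehicle. Dgat2 had 16.8, 26.3, 15.4 and 73.2 CPM and Acss2 29.9, 29.8, 23.6 and 67.1 CPM, so that mouse 4 reached the vehicle range and the other 3 did not. Elovl6, at 14.7, 14.4, 13.3 and 14.3 CPM, was above all vehicle mice. EdgeR called none of the members and 2.22% of all genes. Its unadjusted p was under 0.05 for 5 of the 10 members and for 4781 of 14373 genes. Acacb was at -1.27 ± 0.28 (edgeR adjusted p 0.0532), Me1 at -0.57 ± 0.16 (0.0687) and Dgat2 at -1.51 ± 0.58 (0.117). DESeq2 called Acacb, Me1 and Dgat2 lower, against 11.4% of all genes, with adjusted p of 0.00038, 0.00871 and 0.0366. The 2 members wholly below vehicle compare with 13.2% and the 1 wholly above with 10.7% of all genes. The median over the members was -0.62 and over all genes 0.02.

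Mouse 4 at 2d had the most muscle and fat signal of its group, with 58174 CPM of summed muscle markers against 28615 to 35483 CPM in the others and 27.1 CPM of Adipoq against 7.06 to 11.5 CPM. Without it, edgeR called 5 members lower, namely Dgat2 (-2.30), Acacb (-1.48), Acss2 (-1.38), Srebf1 (-0.85) and Me1 (-0.63), with adjusted p between 0.00301 and 0.0191, where it called 18.4% of all genes lower. Over the group, muscle markers summed to 28615 to 58174 CPM and leukocyte markers to 398 to 1009 CPM, against 96212 to 141316 and 78.5 to 391 CPM in vehicle. The fit of all 31 libraries called 3 members at 2d and 16.4% of all genes lower. With the muscle fibre mean as a covariate it called 0 members and 0.213% of all genes lower. That mean was 10.88 to 12.1 log2 CPM at 2d and 12.61 to 13.25 in vehicle. It holds the group difference here too and cannot be told apart from it.

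At 12d post-Col (10U) no member passed either test against vehicle (edgeR 0 of 10 and 1.23% of all genes, DESeq2 0 of 10 and 6.36%). None had an unadjusted edgeR p under 0.05, where 2461 of 14176 genes had. Dgat2 was at 68.4, 82.1, 75.9 and 39.1 CPM (-0.49 ± 0.30), Acacb at 262, 281, 250 and 89.6 CPM (-0.52 ± 0.36), Acss2 at 64.9, 78.4, 71.3 and 38.1 CPM (-0.15 ± 0.25) and Me1 at 105, 103, 88.1 and 47.7 CPM (-0.02 ± 0.26). In all 4 genes mouse 4 was the lowest, and it also had the least muscle signal of the group, 46739 CPM against 87632 to 111048 CPM. Fasn (-0.02 ± 0.61) and Scd1 (-0.03 ± 0.56) had wide errors, and the median over the members was -0.07.

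Direct comparisons within 10U Col, whose libraries share the high ambiguous share, gave 0 calls by edgeR. From 2d to 6d no member had an unadjusted edgeR p under 0.05, where 3858 of 14513 genes had. EdgeR called 8.73% of all genes and DESeq2, which also called 0 members, 18.7%. Without 2d mouse 4, edgeR called 1 higher, and 1999 of 14234 genes. From 6d to 12d all 10 members had positive log2 differences (12d minus 6d), led by Acss2 at 0.88 ± 0.29 (adjusted p 0.056), Dgat2 at 0.81 ± 0.29 (0.0683), Me1 at 0.78 ± 0.29 (0.0763) and Acacb at 0.73 ± 0.39 (0.177). EdgeR called 26.4% of all genes in this comparison. Its unadjusted p was under 0.05 for 3 of the 10 members and for 6317 of 14344 genes, so the members' share was the lower. DESeq2 called Acss2, Dgat2 and Me1 higher at 12d, where it called 19.6% of all genes higher. Without 12d mouse 4, edgeR called 4 members higher, and 3554 of 14194 genes.

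**Figure D3:**
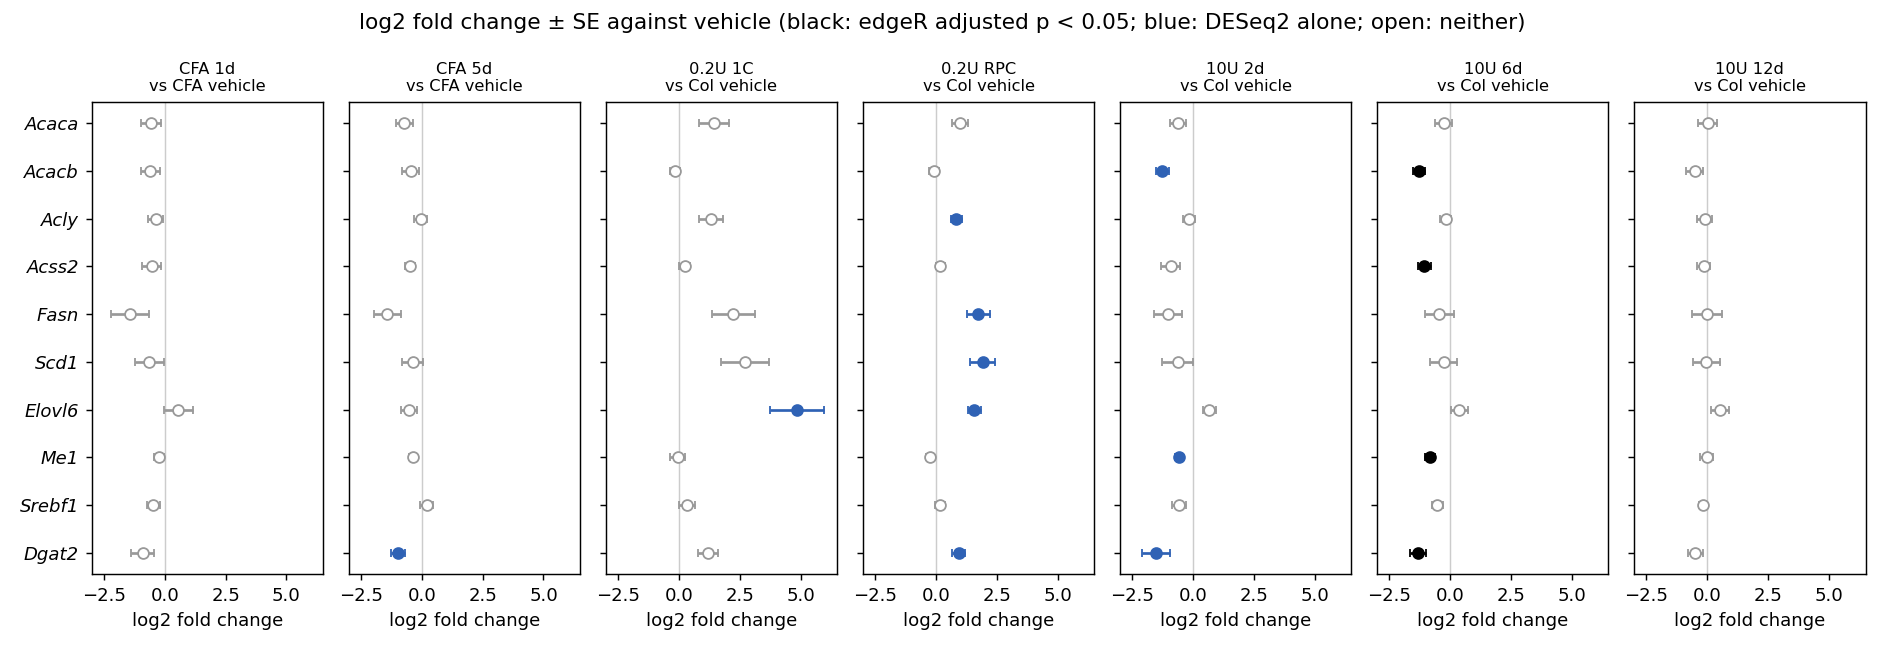
log2 fold change ± SE (edgeR) of the 10 genes in each of the 7 comparisons with vehicle; black points passed edgeR's adjusted p under 0.05, blue points DESeq2's alone and open points neither. Acaca, Acly, Fasn, Scd1, Elovl6 and Dgat2 lie right of 0 in both 0.2U groups, and the 4 black points, all at 10U 6d, lie left of 0.

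In the CFA experiment edgeR called no member. At 1d post-CFA, 9 of 10 members had negative log2 fold changes (median -0.54, all genes -0.01), from -0.23 for Me1 to -1.42 ± 0.76 for Fasn, and Elovl6 had 0.57 ± 0.61. None passed edgeR (0% of genes called) or DESeq2 (0.402% of genes). None had an unadjusted edgeR p under 0.05, where 588 of 13944 genes had. Fasn was at 24.1, 131 and 53.5 CPM against 83.0, 388 and 91.7 CPM in vehicle, and Dgat2 at 38.4, 137 and 61.7 CPM against 152, 203 and 91.8 CPM. Mouse 1 at 1d was the lowest in both, and its Adipoq was 1.69 CPM against 34.3 to 74.1 CPM in vehicle mice. Elovl6 was at 5.36, 7.99 and 26.4 CPM, and mouse 3, the high one, also had 12.3 CPM of Krt79 and 11.4 CPM of Elovl3, an elongase of brown fat and sebaceous gland, where every other CFA mouse had under 1 CPM of each.

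At 5d post-CFA, Dgat2 was at 70.4, 90.9 and 54.8 CPM, below all 3 vehicle mice (-0.97 ± 0.29), and Fasn was at 63.0, 68.3 and 65.3 CPM, below 83.0, 388 and 91.7 CPM (-1.42 ± 0.56). Acaca (-0.71 ± 0.33) was the third member wholly below vehicle, where 7.95% of all genes were. EdgeR called 0 of 10 members and 1.11% of all genes, with Dgat2 at an adjusted p of 0.181. An unadjusted p under 0.05 was seen for 2 members, and the share of all genes at that p is not given here. DESeq2 called Dgat2 lower (-1.003, adjusted p 0.0191) and 1.30% of all genes lower. Without vehicle mouse 3, edgeR called 3 members lower, Dgat2, Fasn and Acacb, and 3.84% of all genes lower. Srebf1 was the only member with a positive value (0.20 ± 0.26), and the median was -0.47 (all genes -0.02). All 3 mice at 5d carried 88619 to 132448 CPM of summed salivary gland markers, against 25.6 to 9396 CPM in vehicle, and the white fat markers summed to 368 to 584 and 504 to 968 CPM.

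Whether CFA and 10U Col acted differently on the members was tested as an interaction, and none passed. For 1d post-CFA against 2d post-Col, edgeR called 0.0946% and DESeq2 0.730% of all genes, and for 5d post-CFA against 6d post-Col 11.3% and 18.6%, with 0 of 10 members called and 0 at an unadjusted p under 0.05 in both. In the later pair the differences (CFA change minus Col change) ran from -0.97 ± 0.92 for Fasn and -0.88 ± 0.51 for Elovl6 to 0.83 ± 0.44 for Acacb. With SEs of this width, differences of this size were not detectable.

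Other genes of lipid synthesis were grouped into 4 lists. At 10U 6d, where edgeR called 27.3% of all genes in either direction, the elongation and desaturation list had 3 of 15 tested genes higher and 1 lower. Those were Elovl3 (3.97 ± 0.52), the desaturase relative Fads3 (1.61 ± 0.19), the dehydratase Ptplad2 (1.46 ± 0.38) and, lower, Elovl4 (-1.27 ± 0.38). The substrate and NADPH list had 1 of 14 higher, the pentose phosphate enzyme Pgd (1.34 ± 0.26), and 3 lower, the mitochondrial acetyl-CoA synthetase Acss1 (-2.29 ± 0.37), pyruvate carboxylase Pcx (-2.25 ± 0.28) and the pyruvate carrier subunit Brp44 (-1.18 ± 0.35). Of 20 regulators, Srebf2 (0.82 ± 0.17) and Prkaa1 (0.74 ± 0.18) rose and malonyl-CoA decarboxylase Mlycd (-1.63 ± 0.26) and Insig2 (-0.56 ± 0.18) fell. Of 18 glycerolipid genes Lpin2 (1.32 ± 0.27) rose and Mogat1 (-4.50 ± 0.84), Lpin1 (-1.40 ± 0.33) and Gpd1l (-0.69 ± 0.21) fell, Mogat1 from a vehicle level of only 0.501 to 1.90 CPM. Mogat1 had at most 2 counts in any mouse at 6d, and Elovl3 at most 2 in any vehicle mouse, so their fitted folds depend on the prior count and are no bounds. In none of the 4 lists did called genes go only 1 way, and the list medians lay between -0.31 and 0.25.

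In the other groups few genes of these lists passed edgeR. At 10U 2d, where 1.08% of all genes were called lower, Pcx (-1.94 ± 0.26) and the enoyl reductase Tecr (-0.92 ± 0.18) fell. At 10U 12d, with 0.762% of all genes called higher, Elovl3 (4.18 ± 0.57) rose, from 0.0453 to 0.091 CPM in vehicle to between 0.83 and 1.93 CPM. At 5d post-CFA, with 1.06% called higher, Elovl7 (1.72 ± 0.27) rose, from 3.61 to 4.74 CPM to 11.3 to 17.7 CPM. In 1C and RPC edgeR called none of their genes. DESeq2 called 6 of 16 elongation and desaturation genes higher in 1C, where it called 2.48% of all genes higher, and 2 higher and 1 lower in RPC, where it called 1.32% higher. Named after their values were seen, Elovl4 (6.99) and Pparg (1.963) were among those called by DESeq2 in 1C, and Agpat2 (1.66), Pparg (1.10) and the fat-associated regulator Thrsp (0.91) in RPC.

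Across the 31 mice, each gene's log2 CPM was compared with the mean of the 10 members' standardized log2 CPM, as a description over libraries that share treatments and tissue content. Of 15516 other genes, the 10 most alike were Adig (Pearson r = 0.931), Cidec (0.929), Agpat2 (0.921), Clstn3 (0.92), Lipe (0.917), Thrsp (0.905), Cfd (0.905), Fmo1 (0.903), 5730469M10Rik (0.897) and Aifm2 (0.889). Cidec and Cfd are in the white fat list used here, a lipid droplet protein and adipsin. Over the 23 mice outside the 0.2U groups, r for the same genes was between 0.786 (Aifm2) and 0.921 (Fmo1).

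The members' levels were also set against tissue marker means. Over the 14 mice of Col vehicle and 10U, Pearson r (and Spearman's rho) with the muscle fibre marker mean was 0.963 (0.916) for Dgat2, 0.924 (0.851) for Acss2, 0.875 (0.833) for Acacb and 0.742 (0.684) for Me1, and over the 9 CFA mice it was 0.91 (0.883), 0.905 (0.967), 0.794 (0.7) and 0.937 (0.9). Without the 2 mice farthest from the median marker level, the lowest of these 8 values of r was 0.553 (Acacb in CFA). Dgat2 and Acss2 also had r of 0.767 and 0.785 with the white fat marker mean over the 14 mice, and Me1 had its strongest r there with leukocyte markers, at -0.896 (-0.899). Fasn and Scd1 had r of 0.837 (0.855) and 0.868 (0.798) with the white fat marker mean over the 14 mice and 0.801 (0.617) and 0.861 (0.817) over the CFA mice. In CFA those values were 0.185 and 0.38 without the 2 farthest mice, so there they rest on those mice. Fasn in CFA also had r of 0.809 (0.833) with muscle, and 0.731 without the 2 farthest mice. Elovl6 followed neither over the 14 mice, with r of -0.46 for muscle and 0.07 for white fat. The groups differ in both sets of values, so these are descriptions and carry no p.

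**Figure D4:**
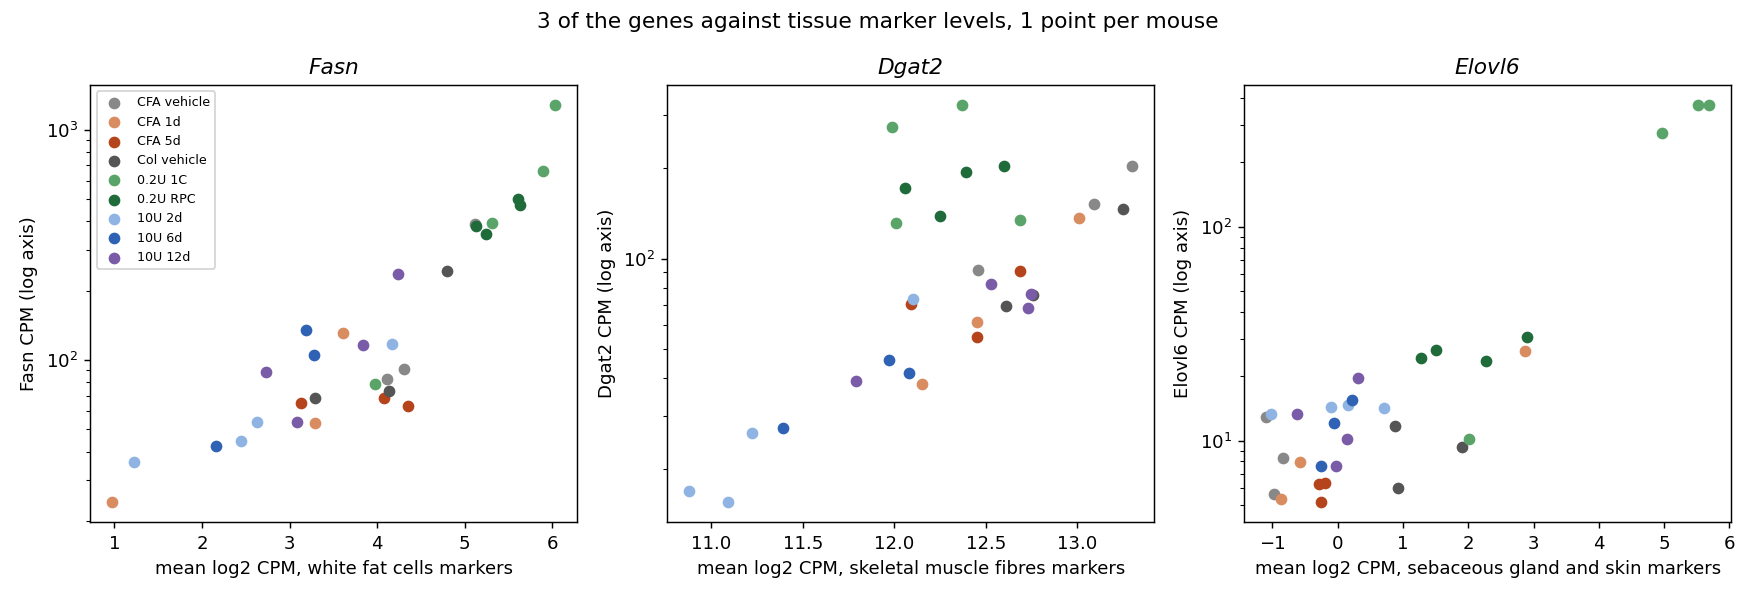
CPM (log axis) of Fasn, Dgat2 and Elovl6 in each mouse against the mean log2 CPM of white fat, muscle fibre and sebaceous gland and skin markers, colored by group. Fasn rises along the fat markers up to 1281 CPM in a 1C mouse, Dgat2 in 10U and vehicle mice rises along the muscle markers with the 0.2U mice above, and 3 1C mice hold both the highest Elovl6 and the highest skin markers.

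The members' positions on mm9 (GENCODE vM1) bear on how reads were counted. Acss2 (chr2:155343684-155411460) shares 7.49% of its exon bases with genes on the opposite strand, among them Ggt7 and Gss, Srebf1 (chr11:60012591-60036083) 1.93% with Rai1, and Me1 (chr9:86474970-86589947) 0.839% with A330041J22Rik. Acaca (chr11:83943174-84215153) shares 0.157%. Acacb (chr5:114596544-114700770), Acly (chr11:100337667-100389314), Fasn (chr11:120667254-120685492), Elovl6 (chr3:129235304-129341413) and Dgat2 (chr7:106302173-106331223) share none. Whether the counting used strand was not given, so reads on shared bases could be left out as ambiguous or include reads of such partners. Which applied was not tested. Of the 50-base windows of Scd1 transcripts (chr19:44468941-44482199), 4.66% also occur in Scd2, Scd3 or Scd4, so Scd1 counts are uncertain by reads shared with these paralogs.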

How the data were processed

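Bulk RNA-seq counts of 31 mice in 9 groups were analysed. The authors prepared stranded poly(A) libraries and 50-base single-end reads, aligned them to mm9 with TopHat2 and deposited raw counts per gene symbol. The submitters' processing notes name HTSeq, and its version, annotation and strand setting were not given in the sources used here. Groups came from the sample titles, and where nothing says otherwise each library is 1 mouse. The main test was edgeR's quasi-likelihood test (edgeR 4.0.16, R 4.3.3, TMM), fitted on the libraries of each comparison alone. A gene entered if 3 or more libraries had 10 counts or more, p-values were adjusted over all such genes by Benjamini-Hochberg, and a call needs an adjusted p under 0.05. DESeq2 1.42.0, the study's tool, was an alternative. SEs were derived from the log2 fold change and its F statistic. CPM in the text used 1 TMM scaling of all 31 libraries. In the deepest and the shallowest library 10 counts are 0.344 and 0.674 CPM.

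Replicate numbers mark different mice. Same-numbered samples correlated above 0.1 in every pair only between 1d post-CFA and CFA vehicle (r = 0.169, 0.252 and 0.593 for the 3 pairs), and the block changed no count there. The edgeR fit was also run on counts simulated with the spread of the vehicle mice, as a check of the code. That simulation had no split group like 1C and no differences in tissue content. The members and lists were chosen with earlier results of these data known. All members were named in every comparison with vehicle, and from each pathway list at most 3 higher and 3 lower genes with the largest change among those called by edgeR. A direct comparison of 10U 6d with RPC is not reported, since the groups were picked after their values were seen. Results of 1 further list of lipid genes are not reported here. Lengths came from GENCODE vM1. No file holds comparisons by the authors.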

Additional observations from a re-analysis of the deposited data

Results flagged for a closer look

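Dixon's rule for a single value far from its group was applied to the 10 genes in the 4 groups of 4 mice, 40 sets of values, of which chance flags about 1 in 20, and it picked out 2. Acss2 at 10U 2d had 1 high mouse (mouse 4, 67.1 CPM against 23.6 to 29.9 CPM), with a gap of 0.855 of the group's range. Acacb at 10U 12d had 1 low mouse (mouse 4, 89.6 CPM against 250 to 281 CPM), with a gap of 0.837. The Acss2 mouse had the highest and the Acacb mouse the lowest summed muscle marker level of its group, and the part of that in the values was not tested. The split of the 1C group, with 1 low and 3 high mice, did not reach the limit.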

How the results depend on the processing

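Of 205 counts of called members under alternatives, 171 stayed within 1.5 times the count reported. The main count was 0 in every comparison reported but 10U 6d against vehicle. A 0 that stayed 0 is among the 171 and says little on stability. The members called against vehicle (main count 0 unless given) changed as follows. DESeq2 called 1 at 5d post-CFA, 1 in 1C, 5 in RPC and 3 at 10U 2d, and in direct comparisons 3 (12d against 6d) and 1 (1C against RPC). The fit of all 31 libraries called 1 in 1C, 3 at 10U 2d, 1 for 12d against 6d and 1 for 1C against RPC. Of all genes it called 0.85% higher in 1C and 16.4% lower at 10U 2d. For 12d against 6d it called 9.87% higher, and for 1C against RPC 0.528% higher. Pooling both vehicle groups gave 1 in 1C, 1 in RPC and 6 at 10U 2d (Elovl6 higher, the others lower). With pooling, 1.62% of all genes were called higher in 1C and 0.0618% in RPC. At 10U 2d 17.7% were called higher and 16.7% lower. The replicate block gave 5 at 10U 2d, 2 in place of 4 at 10U 6d and 4 for 12d against 6d. The numbers did not pair the mice in these comparisons, and the block changed no other count. It called 15.2% and 4.43% of all genes lower at 10U 2d and 6d, and 24.5% higher for 12d against 6d. The covariate fits used all 31 libraries, so their base is the fit of all 31 libraries above. The white fat covariate gave 1 in 1C, as that fit did. It gave 2 in place of 3 at 10U 2d (without Acss2) and 1 in place of 4 at 10U 6d. Of all genes, it called 0.2% higher in 1C, 10% lower at 10U 2d and 11.5% lower at 10U 6d. The salivary covariate, added after the data were seen, gave 3 in 1C and 3 at 10U 2d, with 1.69% of all genes higher and 16% lower there. The skin covariate, added likewise, gave 0 in 1C, 3 at 10U 2d (Elovl6 higher, the others lower) and 1 at 10U 6d. With it 14.2% of all genes were called higher and 15.3% lower at 10U 2d, and 14% lower at 10U 6d. The muscle covariate, also added, gave 2 in 1C, 0 at 10U 2d and 0 at 10U 6d, where Dgat2 reversed to 0.0741 (edgeR adjusted p 0.945). Of all genes it called 0.2% higher in 1C, 0.213% lower at 10U 2d and 2.54% lower at 10U 6d. In those 10U groups its values do not overlap vehicle, so it cannot be told apart from the group difference. Leaving out 1 mouse gave 0 to 3 at 5d post-CFA, 0 to 1 in 1C, 0 to 5 at 10U 2d, 0 to 4 at 10U 6d, 0 to 1 for 6d against 2d, 0 to 4 for 12d against 6d and 0 to 1 for 1C against RPC. All genes called moved with these counts. At 10U 6d the share called lower ran from 2.44% without mouse 2 to 20% without vehicle mouse 3. DESeq2's size factors, no low-count filter and the study's thresholds (fold over 2 and RPKM over 1) kept every count within 1.5 times. The cause of each change was not tested.

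Of 1160 single-gene values under alternatives, 978 kept direction and side of the threshold, 51 newly passed, 23 no longer passed and 107 changed sign without a call on either side. Values called in neither fit are among the 978. With 3 or 4 mice a group and a 1C group split between mice, differences of the size of the SEs given could not be detected. Depth limits no member, since the lowest value of any was 5.15 CPM.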
